A study of Mus musculus with 8 samples.

Results

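Mouse chromosome 11 was described as a string of 500-kb bins, by how often its bins touched each other in Hi-C maps of embryonic stem cells. Its bins were chosen by position alone, as the 244 bins of chromosome 11 among the 5322 bins of the mm9 genome in the deposited matrices, and a contact counted when both of its ends lay in these bins. Of the 244 bins, 238 held at least 0.1 of the chromosome's median coverage in every sample, and the 6 that did not are the first 3 Mb. The cells had been nucleofected with an antisense morpholino oligo (AMO), either one that targets the RNA of the L1 retrotransposon (L1 AMO) or a scramble oligo as the control (SCR AMO). Both groups received 5 nmol of oligo per 100 µl, were sorted for nucleofected cells at 12 h and were harvested at 36 h, so that they differ in the oligo sequence. Each group has 2 samples, which the study describes as independent transfections. Below, the SCR AMO samples are the controls and the L1 AMO samples the treated samples or treated cells. The labels give mouse ESCs as the source, but their extraction protocol speaks of embryonic cells freed of the zona pellucida. Hi-C counts hold no marker gene by which the source could be checked.

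Since the labels set the groups apart by the oligo alone, both sequences are shown, in lower case and 5′ to 3′ as the study's oligo list gives them. Each has 25 bases, of which 12 in the L1 AMO and 8 in the SCR AMO are G or C.
L1 AMO: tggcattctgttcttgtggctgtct
SCR AMO: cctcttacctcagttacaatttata

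In Hi-C, DNA that lies close together in the nucleus is crosslinked, cut and ligated, so that read pairs count contacts between distant stretches of a chromosome. At the scale of megabases, stretches rich in active genes (the A compartment) tend to meet other such stretches, and gene-poor stretches (the B compartment), often at the nuclear lamina, tend to meet each other. The result is a plaid map, in which blocks of either kind prefer their own kind over distance.

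The matrices held 112381720 contacts in SCR AMO replicate 1, 22252054 in SCR AMO replicate 2, 58030519 in L1 AMO replicate 1 and 46263849 in L1 AMO replicate 2. Within chromosome 11 they held 4855167, 955292, 2556577 and 2024917 contacts in the same order. The control samples thus lie on either side of the treated ones in depth. Of all contacts of chromosome 11, 39.6% and 39.9% were with other chromosomes in the controls, against 29.0% and 26.2% in treated cells. The totals of both SCR AMO matrices depart from the numbers of valid pairs that the study lists, while those of both treated samples are close to them, so the making of the matrices and the oligo cannot be told apart in any comparison here. With 2 controls and 2 treated samples, the smallest p of the two-sided exact permutation test is 0.333. A value with 1 number per sample is therefore called different only in the sense that the samples of the groups do not overlap.

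Eigenvector 1, taken from the correlations between bins in the average map of the 4 samples, divided chromosome 11 into 29 blocks, 15 of kind A with 118 bins and 14 of kind B with 120 bins. Kind A is the sign whose bins make the larger share of their contacts with other chromosomes (26.8% against 21.7% for B). A contact between bins of the chromosome counts for each of them here, so these shares cannot be set beside those of all contacts above. Blocks of at least 3 Mb, 8 of kind A and 6 of kind B, hold 202 of the 238 bins, and 5 blocks consist of 1 bin. The long A blocks run from 3 to 7 Mb, from 49.5 to 55.5 Mb, from 57.5 to 63 Mb and from 68 to 71 Mb, and further from 74.5 to 80.5 Mb, from 82.5 to 89 Mb, from 94 to 104.5 Mb and from 113.5 to 122 Mb, the end of the chromosome. The long B blocks run from 7 to 20 Mb, from 23.5 to 29.5 Mb and from 33.5 to 49.5 Mb, the longest of the chromosome at 16 Mb, and from 63 to 68 Mb, from 89 to 94 Mb and from 107.5 to 113.5 Mb. The kinds are spread unevenly, since 20.4% of the 93 bins up to 49.5 Mb were A, against 68.3% of the 145 bins beyond.

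The working name of the chromosome as gene-rich was checked against RefSeq, whose mouse annotation lists 1609 protein-coding genes on chromosome 11. That is 6.59 genes per bin, second only to chromosome 7 with 6.63 among the 19 autosomes, and the other 18 have a median of 3.80. Of the bins of chromosome 11, 49.6% were A, in a range from 35.1% to 50.0% over the other autosomes. No annotation of the mm9 build was at hand, so no gene was placed in a block.

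By eigenvector 1, the plaid pattern was alike in the 4 samples. Pearson's r between the eigenvectors of single samples was taken across the 238 bins, which are not independent replicates. It was 0.992 for the controls and 0.995 for treated cells, and from 0.973 to 0.981 between samples of different groups. The samples were less alike over pairs of blocks, by r of the log2 ratio of observed to expected contact. This was 0.936 between the controls and 0.859 between the treated samples. With the 2 controls in turn, L1 AMO replicate 1 had 0.905 and 0.880, and L1 AMO replicate 2 had 0.792 and 0.748. The eigenvector's sign was the same in all 4 samples for 214 bins (89.9%). It was A in both controls and B in both treated samples for 13 bins (5.46%), and the reverse for 0 bins. No test was run on these signs. The share of such bins over all autosomes was not counted, so they are not shown to be particular to chromosome 11. Of the 13 bins, 12 were the first or last bin of a block or lay in the broken stretch from 20 to 33.5 Mb, and the other was the bin from 8.5 to 9 Mb. Among all bins of the chromosome, 26 A bins and 25 B bins lie next to a block limit. The bin from 30 to 30.5 Mb had the widest shift, with eigenvector values of 0.426 and 0.578 in the controls and -0.695 and -0.454 in treated cells. In the bin from 71.5 to 72 Mb, the first of an A block, they were 0.384 and 0.376 against -0.238 and -0.506.

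In treated cells, the share of contacts at long range was lower and that at a few megabases was higher. Contacts beyond 10 Mb made up 16.2% and 14.9% of the balanced contact frequency within chromosome 11 in the controls and 13.8% and 13.1% in treated cells. Contacts from 2 to 10 Mb made up 9.49% and 8.66% against 10.7% and 10.6%. In both ranges the groups did not overlap. The group means were 15.5% ± 0.927 (SD, n = 2) and 13.4% ± 0.463 (SD, n = 2) beyond 10 Mb, a difference of -2.08 percentage points (exact permutation p = 0.333). From 2 to 10 Mb the difference was 1.61 points, between 9.08% ± 0.585 and 10.7% ± 0.0837 (SD, n = 2 each, exact permutation p = 0.333). Contacts within 2 Mb made up 74.3% and 76.5% in the controls and 75.5% and 76.3% in treated cells. Here treated cells lay between the controls, and the difference of 0.474 points lay within the replicates' spread (exact permutation p = 1). Without SCR AMO replicate 1 it was -0.596 points, without SCR AMO replicate 2 it was 1.54 points, and it was 0.861 and 0.0870 points without L1 AMO replicate 1 or 2. Paired by replicate number, as a replicate block, the share beyond 10 Mb differed by -2.41 and -1.75 points.

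In finer bands, contact frequency was compared as the log2 ratio of treated cells to controls, with the lowest and highest of the 4 ratios between single samples. The ratio was -0.12 between neighbouring bins (from -0.17 to -0.08) and 0.24 from 2.5 to 10 Mb (from 0.16 to 0.31). It was -0.21 from 10.5 to 20 Mb (from -0.28 to -0.14) and -0.17 from 20.5 to 40 Mb (from -0.25 to -0.09), the latter -0.11 without SCR AMO replicate 1. It was -0.25 from 40.5 to 80 Mb (from -0.39 to -0.10) and -0.40 from 80.5 Mb (from -0.58 to -0.21). In these 6 bands the groups did not overlap, each with an exact permutation p of 0.333. They overlapped inside a bin, where the ratio was 0.06 (from -0.03 to 0.15), and from 1 to 2 Mb, where it was 0.05 (from -0.03 to 0.13). Leaving out 1 sample parted the groups in these overlapping bands in some cases. Inside a bin the ratio was 0.12 without SCR AMO replicate 2 and 0.09 without L1 AMO replicate 1. From 1 to 2 Mb it was 0.10 without SCR AMO replicate 1 and 0.08 without L1 AMO replicate 2. With 1 sample left out, the ratio from 1 to 2 Mb ran from 0.00150 to 0.102. Without balancing the groups were apart from 1 to 2 Mb at 0.09. Paired by replicate number, both treated samples were higher in both bands.

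The contrast of the plaid pattern was lower in treated cells. It was measured on the lowest and highest 20% of bins in the order of eigenvector 1, as observed/expected contact, the contact frequency of a pair of bins divided by the chromosome's mean at the same distance. Pairs of A bins had 1.59 in both controls, and 1.44 and 1.36 in treated cells. Pairs with a bin of either kind had 0.363 and 0.371 in the controls, and 0.466 and 0.490 in treated cells. A–A contact was thus lower and A–B contact higher in both treated samples than in both controls, with differences of -0.194 and 0.111. Their sizes depended on the settings, since the A–A difference was -0.396 without balancing and -0.299 with each chromosome balanced alone, and the A–B difference was 0.161 with 10% of the bins at each end and 0.0474 with 50%. Pairs of B bins had 1.48 and 1.44 in the controls and 1.47 in both treated samples, which lay between the controls. This B–B difference of 0.00929 (exact permutation p = 1) depended on single controls, at 0.0320 without SCR AMO replicate 1 and -0.0135 without SCR AMO replicate 2. It also depended on the share of bins taken and on the balancing.

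Compartment strength divides the average of these 2 homotypic values, A–A and B–B, by the A–B value. It was 4.23 and 4.09 in the controls and 3.11 and 2.89 in treated cells. Both treated samples lay below both controls, and the gap was larger than the spread between replicates. The group means were 4.16 ± 0.103 and 3.00 ± 0.159 (SD, n = 2 each), which differ by -1.16, or -27.8% (exact permutation p = 0.333). With replicates paired by number as a replicate block, the differences were -1.12 and -1.20. The size rests on which bins are taken, at -2.30 with 10% of the bins at each end and -0.182 with 50%.

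Chromosome 11 was also set against the other 18 autosomes. Its strength ranked 5 of 19 in the SCR AMO means and 4 in the L1 AMO means. The mean strength of the other autosomes was 3.38 and 3.43 in the controls and 2.53 and 2.39 in treated cells, and on 18 of these 18 both treated samples lay below both controls. Chromosome 11 exceeded that mean by 0.857 and 0.657 in the controls and by 0.581 and 0.499 in treated cells. Its excess was thus lower in treated cells without overlap, by a difference of -0.217 (exact permutation p = 0.333), which was -0.117 without SCR AMO replicate 1. As a share of its control value, the change of -27.8% on chromosome 11 lay inside the range of the other autosomes, from -36.6% to -19.3%. The groups overlapped in the excess with 50% of the bins at each end, where the difference was -0.0135, and with pairs over 10 Mb apart alone, where it was -0.0927. With 10% of the bins it was -0.941, with the groups apart.

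The change depended on the kind of pair and on its distance. Over all 238 bins, A–A pairs 1 to 2 Mb apart had an observed/expected contact of 0.693 and 0.677 in the controls and 0.774 and 0.783 in treated cells. From 2.5 to 10 Mb they had 1.14 in both controls, against 1.03 and 0.998. From 10.5 to 40 Mb they had 1.32 and 1.33 against 1.19 and 1.14, and from 40.5 Mb 1.67 and 1.66 against 1.51 and 1.45. A–A contact was therefore higher in both treated samples from 1 to 2 Mb and lower in both in each band beyond, with log2 ratios of 0.19, -0.18, -0.18 and -0.17. Without balancing, the first of these bands overlapped between the groups, with a difference of 0.0160.

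B–B pairs differed in the opposite direction at either end of the distances. From 1 to 2 Mb they had 1.47 and 1.49 in the controls and 1.36 and 1.35 in treated cells, and from 2.5 to 10 Mb 1.34 and 1.35 against 1.29 and 1.27. From 10.5 to 40 Mb they had 1.24 in both controls and 1.26 in both treated samples. From 40.5 Mb they had 1.10 in both controls against 1.25 and 1.28. Relative to the mean at each distance, B–B contact was thus lower in both treated samples from 1 to 10 Mb and higher in both beyond. The log2 ratios were -0.13, -0.07, 0.03 and 0.20. Because that mean is the divisor, the values of the kinds of pair in a band are bound to each other. The B–B values are therefore no separate result beside those of A–A and A–B pairs. Contact frequency over all pairs was lower beyond 10 Mb, so a higher ratio need not mean more contact. From 2.5 to 10 Mb the B–B difference was 0.0361 without balancing, in the opposite direction, and -0.00487 with each chromosome balanced alone, where the groups overlapped.

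A–B pairs had log2 ratios of 0.12 from 1 to 2 Mb, 0.21 from 2.5 to 10 Mb and 0.15 from 10.5 to 40 Mb, and both treated samples lay above both controls in each of these bands. From 40.5 Mb they had 0.703 and 0.708 in the controls and 0.706 and 0.719 in treated cells, which overlapped. The difference there was 0.00700, and with 1 sample left out it ran from 0.000753 to 0.0132. It parted the groups at 0.00940 without SCR AMO replicate 2 and at 0.0132 without L1 AMO replicate 1. It also did so at 0.0187 without balancing, at 0.0129 with each chromosome balanced alone and at 0.00988 with the second L1 AMO matrices alone, and both pairs were higher when paired by replicate number. Pairs up to 2 Mb apart with a block limit between them had 0.784 and 0.781 in the controls against 0.830 and 0.829, while pairs inside one block had 1.07 in both controls against 1.06 in both treated samples. Contact across limits was thus higher relative to that within blocks in both treated samples. Since the mean at each distance is the divisor, the lower value within blocks follows from this and is no second result. It also pools both kinds of block. In balanced maps, contact inside the block was higher in both treated samples for 7 of 8 long A blocks and lower for 6 of 6 long B blocks. The exact permutation p was 0.333 for each kind and band whose groups did not overlap.

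Every long A block had a lower preference for its own kind in treated cells. Preference was taken as the log2 ratio of a block's mean observed/expected contact with the other blocks of its kind to that with blocks of the other kind. In the A block from 49.5 to 55.5 Mb, which borders the longest B block, it was 0.97 and 0.99 in the controls and 0.62 and 0.53 in treated cells. In the A block from 68 to 71 Mb it was 1.33 and 1.34 against 0.99 and 0.89. In the longest A block, from 94 to 104.5 Mb, it was 1.36 and 1.33 against 1.15 and 1.05. The change was largest in the first of these 3, at -0.41, and smallest in the A block from 82.5 to 89 Mb, at -0.14, where preference was 0.85 and 0.86 against 0.75 and 0.68. In all 8 blocks both treated samples lay below both controls, as in 99.2% of the 126 long A blocks of the 19 autosomes.

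Both sides of that ratio differed between the groups. Contact of the A blocks with other A blocks was lower in both treated samples for 8 of 8, as for 96.0% of the autosomal A blocks, with a median log2 ratio of -0.20. In the A block from 3 to 7 Mb it was 2.19 and 2.20 in the controls and 1.92 and 1.85 in treated cells, the highest level of any long block of the chromosome. The weakest change was in the last block, from 113.5 to 122 Mb, at 1.44 in both controls and 1.40 and 1.35 in treated cells. That difference of -0.0607 was -0.0320 without L1 AMO replicate 2. Contact of the A blocks with B blocks was higher in both treated samples for 7 of 8, against a background of 81.0%. It was lower in 1, the block from 82.5 to 89 Mb, with 0.757 in both controls against 0.732 and 0.737 (background 10.3%), and without balancing its groups overlapped. For the block from 3 to 7 Mb the contact with B blocks differed by 0.0345, by 0.0534 without SCR AMO replicate 1 and by 0.0156 without SCR AMO replicate 2. Its groups overlapped without balancing, with each chromosome balanced alone and with the second L1 AMO matrices alone.

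The long B blocks differed among themselves. All 6 had a higher observed/expected contact with other B blocks in both treated samples than in both controls, against a background of 51.3% of 154 autosomal B blocks. This is contact relative to the mean at each distance. Counts between these blocks with distance left in are given further below. The block from 107.5 to 113.5 Mb stood out, with 1.10 and 1.08 in the controls and 1.32 and 1.35 in treated cells, a log2 ratio of 0.29. In the other 5 the log2 ratio ran from 0.06 to 0.10. Contact with A blocks was higher in both treated samples for 5 of 6, against a background of 79.9%, and most in the block from 89 to 94 Mb, at 0.630 and 0.616 against 0.745 and 0.783. For the block from 23.5 to 29.5 Mb this contact differed by 0.0329, and by 0.0208, 0.0497 and 0.0161 without SCR AMO replicate 1, L1 AMO replicate 1 or L1 AMO replicate 2. In the block from 7 to 20 Mb it was 0.713 and 0.718 in the controls and 0.710 and 0.726 in treated cells, which overlapped. It differed there by 0.00246 and by -0.000103 without SCR AMO replicate 1. The groups were apart without L1 AMO replicate 1, at 0.0108, and without L1 AMO replicate 2, at -0.00588, and also without balancing, at 0.0198, and with each chromosome balanced alone, at 0.0151.

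As a net result, preference of B blocks for their own kind went either way. It was higher in both treated samples in 3 of 6 blocks, against a background of 20.1%, and lower in both in 2, against 64.9%. In the B block from 7 to 20 Mb it was 0.68 and 0.66 in the controls and 0.75 and 0.74 in treated cells. In the B block from 89 to 94 Mb it was 1.16 and 1.17 against 0.97 and 0.90. The first was thus higher and the second lower without overlap, with log2 changes of 0.08 and -0.23. Preference was also higher in the blocks from 63 to 68 Mb and from 107.5 to 113.5 Mb, by 0.07 and 0.05, the latter with overlap when the second L1 AMO matrices alone were used. It was lower in the longest block, from 33.5 to 49.5 Mb, at 0.93 and 0.92 against 0.86 in both treated samples, but higher by 0.07 without balancing, and the groups overlapped with each chromosome balanced alone. In the block from 23.5 to 29.5 Mb it was 0.82 and 0.76 against 0.83 and 0.74, which overlapped. There the change was -0.01 with all samples, 0.02 without SCR AMO replicate 1, -0.05 without L1 AMO replicate 1 and 0.04 without L1 AMO replicate 2, the last 2 with groups apart. Without balancing it was 0.11, with groups apart.

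Contact inside the blocks depended on the balancing. In balanced maps, observed/expected contact inside the A block from 3 to 7 Mb was 0.740 and 0.746 in the controls and 0.836 and 0.848 in treated cells. Inside the B block from 107.5 to 113.5 Mb it was 1.68 and 1.69 against 1.50 and 1.51. It was higher in both treated samples inside 7 of 8 long A blocks (background 67.5%) and lower inside 1, from 94 to 104.5 Mb (background 23.8%), and it was lower inside 6 of 6 B blocks (background 89.6%). Without balancing, the difference inside the A block from 3 to 7 Mb was -0.0321, the opposite direction. It was also reversed with groups apart inside the A blocks from 57.5, 74.5 and 113.5 Mb and with overlap inside those from 49.5 and 82.5 Mb, and inside that from 68 Mb it was 0.00483 with overlap, so that none of the 7 higher values held. Inside the B block from 33.5 to 49.5 Mb it was then 0.0156, reversed with overlap, and inside the B blocks from 7 and 89 Mb it was -0.00715 and -0.0169, both with overlap. On raw counts at matched distance, edgeR called 0 of 8 A and 0 of 6 B blocks, with 0 at an unadjusted p under 0.05 and 0 in DESeq2. With the balancing factors in its expected counts, a setting chosen after seeing the data, it called 8 of 8 A blocks up and 6 of 6 B blocks down, as it did 93.2% and 87.2% of the long A and B blocks of the other autosomes. This includes the A block from 94 to 104.5 Mb, with a log2 ratio of 0.14 against the lower value in balanced maps, so the measures disagree there. The raw contacts of A bins over those of B bins, which balancing evens out, moved with the groups, at 1.17 and 1.16 in the controls and 1.13 and 1.06 in treated cells. The part of that ratio in the result was not tested.

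Counts between single blocks were tested next, to see which pairs of blocks the contrast rests on. For every pair of blocks on the same autosome, a block with itself included, the raw counts were added and tested with edgeR over 13586 pairs with at least 10 counts on average. On chromosome 11 lie 427 of them, 403 of different blocks and 24 of a block with itself. The lowest count behind a pair was 1, and the medians were 1371 and 250 counts in the controls and 616 and 476 in treated cells. After scaling by TMM, 199 of the 427 pairs passed an adjusted p of 0.05, all of them pairs of different blocks, and 28.1% of these were higher in L1 AMO. The counts by kind below are of different blocks. Of 105 A–A pairs, 1 rose and 92 fell, where 8.76% rose and 48.5% fell over all autosomes. Of 89 B–B pairs, 19 rose and 3 fell, against 29.3% and 8.48% over all autosomes. Of 209 A–B pairs, 36 rose and 48 fell, against 23.3% and 17.3%. The median log2 ratio on chromosome 11 was -0.45 for A–A, 0.08 for B–B and -0.07 for A–B pairs. On the other autosomes the medians were -0.29, 0.09 and -0.01, and it was -0.04 over all pairs.

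These counts rest on the scaling and on 1 control. Without TMM the median over all pairs shifted to -0.16, and 14.3% of 237 called pairs of different blocks were higher. Then 0 A–A pairs rose and 98 fell, 13 B–B pairs rose and 12 fell, and 21 A–B pairs rose and 93 fell. On the other autosomes 5.01% of A–A pairs rose and 59.8% fell, 19.2% of B–B pairs fell and nearly as many rose, and 15.5% of A–B pairs rose and 29.0% fell. The medians on chromosome 11 by kind were then -0.57, -0.04 and -0.20. Without SCR AMO replicate 1, the deepest sample, fewer pairs passed, on the other autosomes as well. The medians on chromosome 11 were then -0.41 for A–A, 0.06 for B–B and -0.04 for A–B pairs. They were -0.24, 0.10 and 0.03 on the other autosomes. With DESeq2 132 pairs passed. With the replicate number as a replicate block in the fit, 205 passed.

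Direction varied with distance under TMM. With block centres under 10 Mb apart, 25 of 42 A–B pairs rose and 2 fell, and 11 of 13 B–B pairs rose and 0 fell, while 1 of 14 A–A pairs rose and 6 fell. On the other autosomes 65.8% of A–B, 89.0% of B–B and 34.5% of A–A pairs at these distances rose, and 9.74% of A–A pairs fell. From 10 to 40 Mb, 42 of 43 A–A pairs fell and 0 rose, against 50.9% and 9.01% elsewhere. At these distances 5 of 39 B–B pairs rose and 3 fell, against 34.7% and 2.72%, and 11 of 79 A–B pairs rose and 14 fell, against 26.2% and 6.20%. From 40 Mb, 44 of 48 A–A pairs fell and 0 rose, against 53.6% and 2.87%, and 32 of 88 A–B pairs fell and 0 rose, against 30.4% and 6.91%. There 3 of 37 B–B pairs rose and 0 fell, against 12.4% and 14.6%.

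To compare pairs at matched distance, the count expected from each sample's raw mean at the same distances took the place of the library size. Then 191 of the 427 pairs passed in edgeR, 190 of them of different blocks, and 53.7% of the latter were higher in L1 AMO. Of the A–A pairs 0 rose and 71 fell (1.12% and 42.2% over all autosomes), with 0 rises at an unadjusted p under 0.05 as well. Of the B–B pairs 50 rose and 1 fell (29.1% and 2.38%), and of the A–B pairs 52 rose and 16 fell (15.1% and 5.95%). The median log2 ratios were -0.26, 0.25 and 0.07, beside -0.21, 0.15 and 0.03 on the other autosomes. Of the pairs that passed, all 71 A–A pairs thus fell, while 50 of 51 B–B and 52 of 68 A–B pairs rose. Most B–B rises lay far out, with 24 of 39 pairs from 10 to 40 Mb and 22 of 37 pairs from 40 Mb, against 4 of 13 under 10 Mb. On the other autosomes the shares were 32.9%, 26.6% and 21.7% in the same order. The A–A falls numbered 11 of 14 pairs under 10 Mb, 40 of 43 from 10 to 40 Mb and 20 of 48 from 40 Mb, against 67.1%, 55.8% and 25.1% elsewhere. The differences between distances were not tested.

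These counts rest on the expected counts and, again, on 1 control. With the balancing factors of both blocks' bins in the expected counts, chosen after seeing the data, 20 B–B pairs rose and 3 fell, 0 A–A pairs rose and 62 fell, and 49 A–B pairs rose and 22 fell. On the other autosomes 16.5% of B–B pairs rose and 7.19% fell, 1.32% of A–A pairs rose and 33.4% fell, and 16.0% of A–B pairs rose and 5.76% fell, so the B–B counts lay near that share. With that setting 44.2% of the called pairs of different blocks were higher. Without SCR AMO replicate 1 fewer pairs passed, on the other autosomes as well. The median log2 ratios of different blocks were then -0.24 for A–A, 0.19 for B–B and 0.08 for A–B pairs. They were -0.20, 0.12 and 0.04 on the other autosomes. Without SCR AMO replicate 2 the A–B median was 0.07, beside 0.03 on the other autosomes. With DESeq2, 102 pairs of different blocks passed, of which 0 A–A pairs rose and 46 fell, 25 B–B pairs rose and 0 fell, and 29 A–B pairs rose and 2 fell. On the other autosomes 0.527% of A–A pairs then rose and 22.6% fell. There 10.1% of B–B pairs rose and 1.08% fell, and 7.64% of A–B pairs rose and 1.42% fell. With the replicate block, 195 pairs of different blocks passed on chromosome 11. With the blocks of the SCR AMO eigenvector, 67 A–B pairs rose and 6 fell, where 16.4% rose and 4.34% fell on the other autosomes. In that setting 0 A–A pairs rose and 67 fell, against 1.74% and 40.4%, and 46 B–B pairs rose and 1 fell, against 25.4% and 2.51%.

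Among the long blocks alone, 25 of 28 A–A pairs fell at matched distance and 0 rose, with a median log2 ratio of -0.27. Of 15 B–B pairs, 14 rose and 0 fell, with a median of 0.22, and of 48 A–B pairs, 28 rose and 1 fell, with a median of 0.18. Between long blocks of the other autosomes, 66.8% of A–A pairs fell and 2.35% rose, 34.8% of B–B pairs rose and 4.94% fell, and 41.5% of A–B pairs rose and 6.64% fell. Their medians were -0.20, 0.09 and 0.10. The difference between chromosome 11 and these was not tested. DESeq2 gave 21 A–A falls and 0 rises, 12 B–B rises and 0 falls, and 22 A–B rises and 1 fall, against 54.3% of A–A falling, 18.9% of B–B rising and 31.7% of A–B rising elsewhere. With the balancing factors in the expected counts, 24 of the A–A pairs fell and 0 rose, 5 of the B–B pairs rose and 1 fell, and 31 of the A–B pairs rose and 5 fell. Elsewhere 60.8% of A–A pairs fell, 18.2% of B–B pairs rose and 18.6% fell, and 45.4% of A–B pairs rose and 8.20% fell. Under TMM alone, with distance left in, 26 A–A pairs fell and 0 rose, 1 B–B pair rose and 1 fell, and 13 A–B pairs rose and 12 fell, against 65.0% of A–A falling, 28.4% of B–B rising and 20.8% falling, and 40.1% of A–B rising and 27.1% falling.

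The A–A falls were spread over the blocks, beside 66.8% of such pairs on the other autosomes. Each of the A blocks from 68 to 71 Mb, 74.5 to 80.5 Mb, 82.5 to 89 Mb and 94 to 104.5 Mb fell with 7 of its 7 long A partners. With the balancing factors the block from 82.5 to 89 Mb fell with 6 of 7. The last block, from 113.5 to 122 Mb, fell with 4 of 7, with 3 of 7 once the balancing factors were in and with 7 of 7 under TMM. The largest fall was between the blocks from 3 to 7 Mb and from 57.5 to 63 Mb, with 5490, 929, 1760 and 1168 counts in the order SCR AMO 1, SCR AMO 2, L1 AMO 1, L1 AMO 2. That is 2.81 and 2.73 times the expected count in the controls, and 2.11 and 1.95 times in treated cells. Both treated samples were lower than both controls, with a log2 ratio of -0.45 (edgeR, adjusted p = 2.9e-12).

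The blocks from 68 to 71 Mb and from 94 to 104.5 Mb had 1.99 and 1.97 times the expected count in the controls, against 1.52 and 1.38. The blocks from 3 to 7 Mb and from 49.5 to 55.5 Mb, with centres 47.5 Mb apart, had 2.88 and 3.08 against 2.29 and 2.07. The blocks from 68 to 71 Mb and from 74.5 to 80.5 Mb, with centres 8 Mb apart, had 1.75 and 1.73 against 1.39 and 1.22. In each of these pairs both treated samples lay below both controls, with log2 ratios of -0.45, -0.43 and -0.41 (edgeR, adjusted p = 6.2e-15, 6.8e-13 and 1.2e-13). The 2 longest A blocks, from 94 to 104.5 Mb and from 113.5 to 122 Mb, had 1.64 and 1.62 against 1.50 and 1.32. They too were lower in both treated samples, with a log2 ratio of -0.21 (edgeR, adjusted p = 1.0e-05) that was -0.12 without L1 AMO replicate 2 and -0.09 with the balancing factors. In DESeq2 their log2 ratio of -0.21 did not pass (adjusted p = 0.088), and over all alternatives the adjusted p ran from 1.1e-18 to 0.088.

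The first and the last block of the chromosome, both A, were not among the falls. With 113 Mb between their centres, they had 2790, 508, 888 and 591 counts in the sample order above, which were 1.26 and 1.25 times the expected count in the controls and 1.30 in both treated samples. The samples did not overlap, but the log2 ratio of 0.05 did not pass the test (edgeR, adjusted p = 0.62). Under TMM, with distance left in, the same pair had a log2 ratio of -0.74 (edgeR, adjusted p = 2.7e-13), lower in both treated samples.

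Among B–B pairs, the 4 largest rises all had the block from 107.5 to 113.5 Mb as a partner. With the block from 63 to 68 Mb, at 45 Mb between centres, it had 3384, 556, 2151 and 1594 counts. These were 0.930 and 0.862 times the expected count in the controls and 1.33 and 1.36 times in treated cells. With the block from 7 to 20 Mb it had 0.621 and 0.627 against 0.877 and 0.963. With the block from 23.5 to 29.5 Mb it had 0.844 and 0.843 against 1.18 and 1.24. In each pair both treated samples lay above both controls, and the first and the last of them had less than the expected count in the controls and more in treated cells. The log2 ratios were 0.57, 0.56 and 0.51 (edgeR, adjusted p = 4.2e-16, 1.5e-11 and 4.7e-09).

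With the longest B block, from 33.5 to 49.5 Mb, the block from 107.5 to 113.5 Mb had 0.943 and 0.918 times the expected count in the controls against 1.20 and 1.33. This pair too was higher in both treated samples, with a log2 ratio of 0.43 (edgeR, adjusted p = 1.5e-12). With the balancing factors the 4 pairs had log2 ratios of 0.43, 0.35, 0.36 and 0.28 in the order given, and each rose. Under TMM, with distance left in, the first rose by 0.38, and the others had 0.06, 0.17 and 0.11 (edgeR, adjusted p = 0.51, 0.068 and 0.090).

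The 2 longest B blocks, from 7 to 20 Mb and from 33.5 to 49.5 Mb, had 38821, 7004, 18810 and 15414 counts, the highest of the 15 pairs. They had 1.02 and 1.01 times the expected count in the controls and 1.11 and 1.19 in treated cells. Both treated samples were higher, with a log2 ratio of 0.18 (edgeR, adjusted p = 6.4e-05). With the balancing factors the ratio was 0.03 and did not pass (edgeR, adjusted p = 1). Over the alternatives at matched distance the adjusted p ran from 2.3e-11 to 1. Under TMM, with distance left in, the log2 ratio was 0.01 and did not pass either (edgeR, adjusted p = 0.88).

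Among A–B pairs, the B blocks from 89 to 94 Mb and from 107.5 to 113.5 Mb rose with 7 of 8 long A blocks each at matched distance, and the longest B block rose with 6 of 8. Each of the 3 rose with 7 of 8 once the balancing factors were in, and under TMM they rose with 6, 3 and 1 of 8. Of long A–B pairs elsewhere, 41.5%, 45.4% and 40.1% rose in these fits in turn. The largest rise was between the A block from 74.5 to 80.5 Mb and the B block from 89 to 94 Mb, with 3088, 557, 1942 and 1719 counts. They had 0.394 and 0.386 times the expected count in the controls and 0.554 and 0.637 in treated cells. Contact stayed under the expected level in all 4 samples but was higher in both treated samples, with a log2 ratio of 0.60 (edgeR, adjusted p = 1.9e-16).

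The same B block had 0.443 and 0.428 times the expected count with the last A block, from 113.5 to 122 Mb, in the controls, against 0.595 and 0.660 in treated cells. With the A block from 68 to 71 Mb it had 0.437 and 0.432 against 0.556 and 0.639. The A block from 49.5 to 55.5 Mb and the B block from 107.5 to 113.5 Mb had 0.741 and 0.734 against 0.932 and 1.01. Each was higher in both treated samples, with log2 ratios of 0.51, 0.45 and 0.39 (edgeR, adjusted p = 2.9e-14, 8.4e-08 and 1.6e-07). Under TMM the first 2 of them rose by 0.35 and 0.25, and the third had 0.15 (edgeR, adjusted p = 0.063). The longest A and the longest B block had 0.480 and 0.478 against 0.526 and 0.539, higher in both treated samples with a log2 ratio of 0.15 (edgeR, adjusted p = 0.0074). That pair did not pass without SCR AMO replicate 1 (adjusted p = 0.17) or without SCR AMO replicate 2 (adjusted p = 0.076), in a range from 0.0011 to 0.17 over the alternatives. Under TMM, with distance left in, its log2 ratio was -0.11, the opposite direction, and did not pass (edgeR, adjusted p = 0.11).

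At matched distance, the single A–B fall among the long blocks was between the A block from 3 to 7 Mb and the B block from 63 to 68 Mb. They had 2074, 330, 706 and 503 counts, or 1.48 and 1.33 times the expected count in the controls and 1.17 in both treated samples. Unlike the other A–B pairs named here, they met more often than expected in all 4 samples. Both treated samples were lower, with a log2 ratio of -0.30 (edgeR, adjusted p = 0.00018), which was -0.19 without SCR AMO replicate 1 and did not pass there (adjusted p = 0.30, in a range from 1.4e-05 to 0.30 over the alternatives).

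Along the chromosome, each bin was then taken by its preference, the log2 ratio of its mean observed/expected contact with all bins of its own kind to that with bins of the other kind, and tested with limma over 4780 bins of the autosomes. On chromosome 11, 136 of 238 bins passed. Of 118 A bins 2 rose and 78 fell, against 0.560% and 62.7% of the A bins of all autosomes, and of 120 B bins 20 rose and 36 fell, against 11.3% and 32.1%. The median change was -0.27 in A bins and -0.04 in B bins of chromosome 11, and -0.22 and -0.07 on the other autosomes. With the replicate block 135 bins passed. Without L1 AMO replicate 2, 95 bins passed, 11 B bins up and 25 down. Without balancing, 37 B bins rose and 21 fell, and 0 A bins rose and 99 fell. The median changes were then -0.37 in A bins and 0.06 in B bins, beside -0.29 and -0.00577 on the other autosomes. Shares of called bins on the other autosomes were not counted in these alternatives.

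The kind of a bin comes from the average map, which holds the treated samples, so a bin of changed sign carries a change in preference by its label. Of the 13 such bins, the average map makes 8 B, of which 7 rose and 0 fell, and 5 A, of which 0 rose and 5 fell, and these calls support nothing. Among the 214 bins of the same sign in every sample, a subset chosen after seeing the data, 2 of 106 A bins rose and 68 fell, and 11 of 108 B bins rose and 36 fell. With the blocks of the SCR AMO eigenvector, 2 of 126 A bins rose and 92 fell, and 14 of 112 B bins rose and 40 fell. The median changes were then -0.28 in A bins and -0.06 in B bins, beside -0.23 and -0.10 on the other autosomes. Up to 49.5 Mb, 14 of 19 A bins fell and 0 rose, and beyond, 64 of 99 fell and 2 rose. Of the B bins, 12 of 74 rose and 27 fell up to 49.5 Mb, and 8 of 46 rose and 9 fell beyond. Next to a block limit, 11 of 25 B bins rose and 0 fell, and elsewhere 9 of 95 rose and 36 fell. For A bins these counts were 1 of 26 up and 16 down, and 1 of 92 up and 62 down. The counts by stretch and by block limit include the bins of changed sign. Most of those bins lie at a block limit, and to that extent the counts support nothing. No share over all autosomes was counted for these parts or for the subset of the same sign. The differences between these parts were not tested.

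The bin with the highest change, from 30 to 30.5 Mb, is a B block by itself in the broken stretch and one of the 13 bins of changed sign. It was A in both controls, so it counts as B through the treated samples alone, and its values are given with no test. Its preference was -0.18 and -0.33 in the controls and 0.37 and 0.27 in treated cells, which differ by 0.57. With the blocks of the SCR AMO eigenvector the highest change of a B bin was 0.34. The bin from 81 to 81.5 Mb had 0.20 and 0.13 against 0.50 and 0.41. The other 3 of the 5 largest rises lie in the B block from 7 to 20 Mb, in its bins from 7 to 7.5 Mb, from 7.5 to 8 Mb and from 17.5 to 18 Mb. Their changes ran from 0.31 to 0.36, higher in both treated samples in each. In the bin from 17.5 to 18 Mb the change was 0.47 without SCR AMO replicate 1 and 0.15 without SCR AMO replicate 2, where it did not pass (adjusted p = 0.18, in a range from 7.8e-06 to 0.18 over the alternatives).

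The largest falls came from both kinds. The B bin from 92 to 92.5 Mb had a preference of 1.70 and 1.77 in the controls and 1.25 and 0.95 in treated cells, and its neighbour from 91.5 to 92 Mb had 1.58 and 1.72 against 1.15 and 0.95. Both fell, by 0.64 and 0.60 on the log2 scale (limma, adjusted p = 0.00030 and 0.00029), with both treated samples below both controls. In the first, mean contact with A bins was 0.413 in the SCR AMO and 0.656 in treated cells, while that with B bins was 1.37 and 1.40. The A bins from 69 to 69.5 Mb and from 69.5 to 70 Mb had 1.88 and 1.91 against 1.34 and 1.25, and 1.95 and 1.93 against 1.40 and 1.24. The A bin from 52.5 to 53 Mb had 0.69 and 0.65 against 0.12 and 0.02, so that in treated cells it met B bins nearly as often as A bins. These 3 A bins fell by 0.60, 0.62 and 0.60 on the log2 scale (limma, adjusted p = 0.00022, 0.00023 and 8.6e-05), in both treated samples each.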

How the data were processed

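The authors deposited raw contact counts (unit: count) per pair of 500-kb bins, made from read pairs with HiC-Pro (2.7.1b per the labels) on mm9. The study's methods name another version of HiC-Pro. Duplicate removal and mapping options are not stated in the labels or the texts at hand. The 2 matrices of each L1 AMO sample were added. The members and lists were chosen with earlier results of these data known. Bin order was checked by the drop of contacts at chromosome ends. Y, M and bins whose coverage was under 0.1 of their chromosome's median in a sample were left out, and 5093 bins were balanced genome-wide by iterative correction. Expected values were each chromosome's mean at each distance. Kind A was the sign of eigenvector 1 with more contacts to other chromosomes. Depth ran from 955292 to 4855167 contacts within chromosome 11. How far depth or the number of samples limits the shares and the single pairs of small blocks was not tested.

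Samples were grouped by their labels. Values of 1 number per sample were compared with exact permutation tests (two-sided), block pairs by edgeR 4.0.16 (quasi-likelihood) and DESeq2 1.42.0, and bins by limma 3.58.1 (trend), each over all autosomes with Benjamini-Hochberg adjustment, in R 4.3.3 and Python 3.11.15 with numpy 2.4.6 and pandas 2.3.3. The measures were tested on simulated data.

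Named are all blocks of at least 3 Mb, the pairs of such blocks with the 4 largest rises and 4 largest falls at matched distance among homotypic and among heterotypic pairs that passed without overlap, the pairs of the longest blocks and of the first and last block, and the 5 bins with the largest rise and the 5 with the largest fall. Of heterotypic falls 1 qualified. Other bins that the text names were chosen after their values were seen, and the splits by distance, block limit and stretch were added then.

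The alternatives were each sample left out, a replicate block, no balancing, each chromosome balanced alone, a coverage limit of 0.5, either L1 AMO matrix, contacts inside a bin left out, eigenvectors of 1 group, 10% or 50% of bins, pairs over 10 Mb apart, DESeq2, no TMM, no count filter and limma without trend. With a sample or matrix left out, the ranking and blocks of all samples were kept, and a lone sample is assumed to vary like the others. Published Hi-C and ChIP-seq were left out, as were contacts of chromosome 11 with other chromosomes beyond their share.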

Additional observations from a re-analysis of the deposited data

How the results depend on the processing

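Of 143 alternatives run on 11 main results, 126 kept the direction and the side of the threshold. The shares beyond 10 Mb and from 2 to 10 Mb, A–A and A–B contact and strength did so in each. Counts were compared by their totals alone, for block pairs with a block with itself included. The total of changed bins ran from 95 to 157, but B bins changed direction without balancing, with 37 up and 21 down against 20 and 36, and a median of 0.06 against -0.04. Leaving out 1 sample moved the difference within 2 Mb between -0.596 and 1.54 points, the B–B difference between -0.0135 and 0.0320, and the numbers of changed block pairs between 127 and 211, or 81 and 205 at matched distance. With contacts inside a bin left out, the difference within 2 Mb was -0.522. The B–B difference was -0.0291 with the SCR AMO eigenvector, -0.0877 with 10% and 0.0578 with 50% of bins, 0.0567 beyond 10 Mb, 0.157 without balancing and 0.0850 with each chromosome balanced alone. Against the other autosomes the difference was -0.941 with 10% and -0.0135 with 50% of bins, and -0.0927 beyond 10 Mb. The A–A difference was -0.396 without balancing, and the A–B difference 0.0474 with 50% of bins. DESeq2 gave 132 and 103 block pairs. The cause was not tested for any of these, nor for the reversals below.

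Replicate numbers may not be pairs: over the block pairs of all autosomes, deviations of samples of the same number had a correlation of 0.0364, and on chromosome 11 of -0.115. Paired as a replicate block, 205, 196 and 135 pairs, pairs at matched distance and bins passed, and 186, 174 and 141 with the numbers crossed, a setting chosen after seeing the data.

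For values by distance and of single blocks, the settings were also chosen after seeing the data, and 741 of 790 kept direction and side. Reversals were, without balancing, 0.0361 for B–B pairs from 2.5 to 10 Mb, -0.0321, -0.0186, -0.0258, -0.0421, -0.00148 and -0.0482 inside the A blocks from 3, 49.5, 57.5, 74.5, 82.5 and 113.5 Mb, 0.0156 inside the B block from 33.5 Mb, and 0.113 and 0.0688 for preference of the B blocks from 23.5 and 33.5 Mb. With each chromosome balanced alone they were -0.000141, -0.00358 and -0.0266 inside the A blocks from 57.5, 74.5 and 113.5 Mb and 0.0512 for preference of the B block from 23.5 Mb. With 1 sample left out, that preference ran from -0.0546 to 0.0393, contact of the B block from 7 Mb with A blocks from -0.00588 to 0.0108, and frequency inside a bin from -0.00132 to 0.121. Of 170 alternatives for named pairs 165 kept their call, and of 90 for named bins 89. Blocks of the SCR AMO eigenvector have other limits and gave no value for them.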
